A study of Mus musculus with 12 samples.

Results

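The proteasome subunit genes are the rows of the count table whose symbol begins with Psm, 1 letter from a to g and a digit. The rule found 50 such genes among 24015 rows and used no measured value. They were followed across 12 nuclear RNA libraries of mouse hippocampus, 3 libraries for each of 4 groups titled Reactivated, Late, Early and Basal. Each library came from neuronal nuclei of 10 to 12 pooled mice.

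All 4 groups share 1 strain and genotype label, ArcCreERT2 x R26R-STOP-floxed eYFP, +/+. In these mice the promoter of Arc, a gene switched on by neuronal activity, drives a Cre recombinase that works only with tamoxifen, and a yellow fluorescent reporter then marks the cells for good. Mice spent 24 h in darkness, received 4-hydroxytamoxifen 1 h before contextual fear conditioning, and were killed 1.5 to 2 h afterwards or 5 days afterwards. Those kept for the later collection spent the first 48 h in darkness again, and some of them met the conditioned cue once more before collection. Nuclei were fixed in 1% paraformaldehyde, sorted with antibodies to the neuronal nuclear protein NeuN, to Arc and to GFP, with 10000 nuclei per condition. The treatment field is identical in all 12 libraries and describes foot shock without recall and collection on day 0, so the groups rest on the titles. No label says which sorting gate or collection time belongs to which title, and neither age nor sex is among the labels used here.

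The 26S proteasome is the cell's main protease for proteins tagged with ubiquitin. A barrel-shaped core particle of alpha and beta rings holds the cutting sites inside, and a regulatory particle caps the barrel, binds ubiquitin chains, removes them and unfolds the substrate with a ring of ATPases. In hippocampal neurons, proteasome activity at synapses is needed for lasting synaptic plasticity, and blocking it impairs memory.

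Total counts per library were 4838166 to 11120255, and the members held 5289 to 11486 counts of a library. Of the 50 members, 46 reached a count of 10 or more in 3 or more libraries and were tested with edgeR among 15668 genes. The titles coincide with a second property of the libraries. Rn45s, the ribosomal RNA precursor, took 18.8% to 27.7% of the counts in Reactivated, 27.9% to 36.5% in Late, 6.23% to 12.9% in Early and 4.72% to 12.2% in Basal. Markers of hippocampal cell types differed as well. The summed normalized counts of 5 granule cell markers were 706.0 to 1956 in Reactivated, 727 to 764 in Late, 1212 to 1454 in Early and 6050.5 to 8817 in Basal, and those of 5 CA1 markers were 2595 to 3102, 2524 to 2819, 1808 to 2107 and 611 to 1017 in the same order of groups. Of 8 microglial genes, 5 were tested. The sum of all 8 reached 821 to 2093 in Reactivated and 5665 to 9737 in Late, against 629 to 783 in Early and 667 to 798 in Basal. Most of the sum in Late came from Cx3cr1 and Itgam, which averaged 3841 ± 1404 and 3820.5 ± 645 there (SD, n = 3). In Late against Basal, Cx3cr1, Itgam and Aif1 rose, while Csf1r and P2ry12 fell. Oligodendrocyte markers summed to 2789 to 7379 in Reactivated and 4685 to 9920 in Late, against 1581 to 1982 in Early and 1823 to 2332 in Basal. In Late against Basal, 3 of these 6 markers rose and 3 fell, with a median log2 fold change of -0.19. The 4 neuronal markers were present in every group. Their sums were 14469.5 to 17204 in Reactivated, 12048 to 12409 in Late, 12864 to 14670 in Early and 9662 to 11405 in Basal. Those of 7 interneuron markers were 2092 to 2226, 1806 to 2057, 1929 to 2708 and 3806 to 4422 in the same order. Those of 5 CA3 and CA2 markers were 2006 to 2401, 3154 to 3925, 1889 to 3150 and 829 to 1115. With the Rn45s share as a covariate, 0 members passed in Late against Basal, and 205 of all genes instead of 7686. The share differs by title, and the 2 cannot be told apart. The part of cell makeup in the results below was not tested, and fewer cells of a type cannot be told apart from less RNA per cell.

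With the 4 group means compared at once, 29 of 46 members (63%) differed between groups, against 58.6% of all genes tested. Late and Reactivated nuclei differed from Basal nuclei in many proteasome genes, and Early nuclei in 0 that passed. The exception was a fit of Early and Basal alone with the replicate number as a block, added after seeing the data, which gave 3. Of all genes, 17.8% passed in that fit. The block over all 12 libraries gave 0, beside 5.92% of all genes. Late against Basal, 14 members rose and 9 fell, together 50% of the members, where 49.1% of all genes passed (25.4% rose and 23.6% fell). Reactivated against Basal, 15 rose and 5 fell, together 43.5%, where 39.4% of all genes passed (20.6% rose and 18.8% fell). All Late libraries lay above all Basal libraries in 17 members and below in 16, against 31.3% and 31.2% of all genes, and the Reactivated libraries above in 18 and below in 6, against 22.8% and 23% of all genes. The number of calls among the members was therefore close to the background in both comparisons. The median log2 fold change of the members was 0.15 in Late against Basal and 0.26 in Reactivated against Basal, beside -0.03 and 0.02 for all genes.

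These directions depend on the scale. With libraries set to the same total instead of TMM scaling, 0 members rose and 23 fell in Late against Basal. Of 15668 genes, 1401 then rose and 9062 fell. The median of all genes was then -0.87. The members' median lay 0.17 above it, compared with 0.18 under TMM. A change of scaling shifts members and all genes almost alike, so these near-equal values do not test that difference. It was 0.09 after a GC trend was removed from each library and 0.27 without Basal 3 and Early 3. In the fit that included the Rn45s share it was -0.06. For Reactivated against Basal, same-total scaling gave 3 that rose and 9 that fell, where 1240 of all genes rose and 5833 fell. Upper quartile scaling gave 12 that rose and 15 that fell in Late against Basal and 12 and 6 in Reactivated against Basal. Of all genes, 3016 rose and 5114 fell, and 2666 rose and 3567 fell, in that order. The values as deposited gave 3 and 6, and 3 and 0, beside 1780 and 2693, and 1138 and 1126 of all genes. In ppm of the counts other than Rn45s, the members together had 1223 to 1284 in Reactivated, 1137 to 1204 in Late, 1247 to 1338 in Early and 1147 to 1170 in Basal. On that scale every Reactivated and Early library lay above every Basal library, and Late overlapped Basal.

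Early against Basal, 0 of 46 members passed with edgeR and 0 with DESeq2, where 6.03% of all genes passed (3.36% rose and 2.66% fell). At an unadjusted p under 0.05 there were 6 members, Psmb1, Psmb5, Psmb10, Psmc1, Psmd3 and Psmd5, all higher in Early. Across members, the log2 fold change was positive in 40 of 46 members and in 51.2% of all genes, with a median of 0.20 and 0.01. With the same total in each library 30 of the 46 were positive. In 9 members every Early library lay above every Basal library and in 0 below, against 11.9% and 11.5% of all genes. The smallest adjusted p was that of Psmb5, a catalytic core subunit, with 44.6 ± 9.33 normalized counts in Early and 24.3 ± 8.59 in Basal (mean ± SD, n = 3 each) and a log2 fold change of 0.87 ± 0.32 (adjusted p = 0.15).

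Same-numbered Early and Basal libraries deviated together from their group means, with r = 0.33, 0.14 and 0.49 for replicates 1, 2 and 3. Basal 1 with Early 2 had 0.22 and Basal 2 with Early 1 had 0.17, both above the value of replicate 2. With these 6 libraries fitted alone and the replicate number as a block, a fit added after seeing the data, 3 of 44 members rose and 0 fell, where 17.8% of all genes passed. They were Psmd1 at 0.32 (adjusted p = 0.0354), Psmd3 at 0.38 (adjusted p = 0.0214) and Psme4 at 0.36 (adjusted p = 0.0169), on the log2 scale with edgeR.

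**Figure D1:**
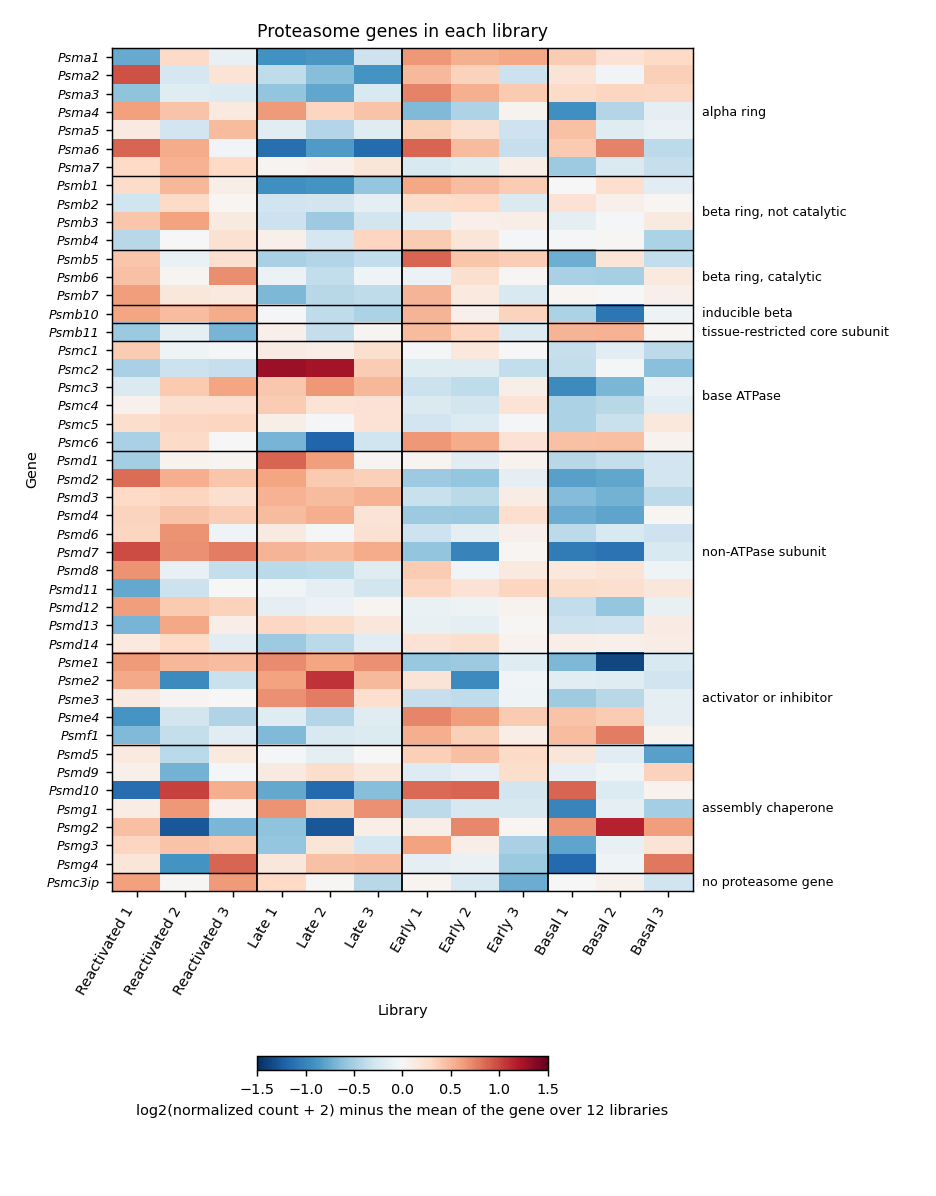
Levels of the 46 tested members (rows, by role) in the 12 libraries (columns), as log2(normalized count + 2) minus the mean of the gene over all libraries under TMM scaling; red is above and blue below that mean. Psmd2, Psmd3, Psmd4 and Psmd7 are red in Reactivated and Late and blue in replicates 1 and 2 of Early and Basal, while several rows of the alpha and beta rings are blue in Late, and many rows are paler in replicate 3 of Early and of Basal.

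The regulatory particle carried most of the higher members. Of its 17 genes, 9 rose and 2 fell in Late against Basal (64.7% passed, beside 49.1% of all genes, median log2 fold change 0.46). With libraries set to the same total this became 0 and 6 (median -0.38), where 66.8% of all genes passed. In Reactivated against Basal 9 rose and 1 fell (58.8% passed, beside 39.4% of all genes, median 0.48). On the same-total scale this became 2 and 2 (median 0.02), where 45.1% of all genes passed. Changes of single genes are given as log2 fold change ± SE with edgeR's adjusted p, under TMM scaling. Psmd2, a scaffold subunit of the base, had normalized counts of 957, 781 and 715 in Reactivated, 808, 704 and 684 in Late, 364, 357 and 484 in Early, and 303, 309.8 and 441 in Basal. All Reactivated and Late libraries lay above all Early and Basal libraries. The log2 fold change was 1.21 ± 0.18 (adjusted p = 0.000264) in Reactivated against Basal and 1.05 ± 0.18 (adjusted p = 0.000277) in Late against Basal.

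Psmd7, a structural partner of the deubiquitinase in the lid, had 705, 575 and 608 in Reactivated, 508, 495 and 527 in Late, 236, 178 and 364 in Early, and 171, 165 and 303 in Basal. Again the Reactivated and Late libraries did not overlap with the others, and the fold change was the largest of any member in Reactivated against Basal, at 1.55 ± 0.25 (adjusted p = 0.000481), or 2.92-fold. In Late against Basal it was 1.24 ± 0.25 (adjusted p = 0.00104). Psmd3, another lid subunit, had 548, 561 and 528 in Reactivated, 641, 622 and 641 in Late, 355, 338 and 482 in Early, and 284, 272 and 340.0 in Basal. Its Late libraries were the highest and very even, and it had the smallest adjusted p of the members, with 1.09 ± 0.15 (adjusted p = 5.14e-05) in Late and 0.87 ± 0.15 (adjusted p = 0.00072) in Reactivated, each against Basal.

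Psmd4, a receptor for ubiquitin chains, had 624, 665 and 639 in Reactivated, 688, 724 and 571 in Late, 337, 337 and 588 in Early, and 294, 285 and 502 in Basal. Early 3 and Basal 3 stood far above the other replicates of their groups, and Early 3 was higher than Late 3. Psmd4 rose by 0.87 ± 0.24 (adjusted p = 0.00783) in Late and by 0.83 ± 0.24 (adjusted p = 0.0138) in Reactivated against Basal, and the second call was lost without Basal 1 or Basal 2. Psmd1, the other scaffold subunit of the base, had 354, 525 and 519.5 in Reactivated, 928, 783 and 521 in Late, 519.8, 453 and 526 in Early, and 378, 396 and 415 in Basal. The Late libraries, with a wide spread, and the Early libraries were all above Basal, and Reactivated 1 was below it. Late rose by 0.91 ± 0.20 (adjusted p = 0.00177) against Basal. Reactivated did not pass against Basal, at 0.24 ± 0.20 (adjusted p = 0.363).

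Psmd12, a lid subunit, had 289, 246 and 237 in Reactivated, 169, 176 and 192 in Late, 174, 177 and 193 in Early, and 144, 125 and 173 in Basal. Each Reactivated library was above all other libraries, and Psmd12 rose by 0.80 ± 0.16 (adjusted p = 0.00166) against Basal, while Late had 0.28 ± 0.16 (adjusted p = 0.163). Psmd14, the deubiquitinase that cuts the ubiquitin chain off the substrate, had 191, 213 and 154 in Reactivated, 118, 129 and 155 in Late, 201, 207 and 179.6 in Early, and 185, 182 and 186 in Basal. It fell in Late against Basal, at -0.46 ± 0.17 (adjusted p = 0.0356), with no overlap between the 2 groups, and this call was lost without Basal 1, Basal 2, Basal 3, Late 1 or Late 2. Reactivated against Basal gave 0.01 ± 0.16 (adjusted p = 0.96). Psmd11, a lid subunit, was the 1 member of the regulatory particle that fell in Reactivated against Basal, at -0.56 ± 0.17 (adjusted p = 0.0194), a call lost without Basal 1, Basal 2 or Reactivated 1. Psmd6 rose in Reactivated by 0.66 ± 0.20 (adjusted p = 0.0162), lost without Basal 1 or Reactivated 2, and Psmd8 and Psmd13 passed in no comparison.

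Among the 6 base ATPases, which form the ring that unfolds substrates, 4 rose and 1 fell in Late against Basal, where 49.1% of all genes passed. In Reactivated against Basal 3 rose and 0 fell, where 39.4% of all genes passed. Psmc2 had 109, 122 and 119.9 in Reactivated, 376, 367 and 201 in Late, 135, 135 and 119 in Early, and 118, 152 and 98.3 in Basal. It was high in Late alone, with Late 3 well below the other Late libraries but above every library of the other groups. Late against Basal was 1.36 ± 0.23 (adjusted p = 0.000235), the largest rise of any member in that comparison, while Reactivated against Basal was -0.06 ± 0.23 (adjusted p = 0.869). Psmc3 had 328, 504 and 579 in Reactivated, 507, 604 and 541 in Late, 306, 294 and 406 in Early, and 197, 238 and 361 in Basal, so that Reactivated 1 lay below Basal 3. It rose by 1.04 ± 0.24 (adjusted p = 0.00215) in Late and 0.82 ± 0.23 (adjusted p = 0.0133) in Reactivated, the second lost without Basal 1, Basal 2 or Reactivated 3.

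Psmc4 had 335, 378 and 383 in Reactivated, 417, 371 and 374 in Late, 277, 264 and 369 in Early, and 229, 239 and 284 in Basal, with all Reactivated and Late libraries above Basal. The changes against Basal were 0.62 ± 0.16 (adjusted p = 0.00449) in Late, or -0.21 with libraries set to the same total, and 0.54 ± 0.16 (adjusted p = 0.0142) in Reactivated, the second lost without Basal 1 or Basal 2. Psmc6 went the other way, with 89.5, 155 and 127 in Reactivated, 76.9, 54.2 and 102 in Late, 199, 187 and 147 in Early, and 172, 173 and 131 in Basal. Its Late libraries lay below all Early and Basal libraries, and it fell, at -1.01 ± 0.25 (adjusted p = 0.0043) in Late against Basal, with -0.34 ± 0.24 (adjusted p = 0.284) in Reactivated. Psmc1 rose in Late by 0.46 ± 0.16 (adjusted p = 0.0263), or -0.38 with libraries set to the same total, lost without Basal 1, Basal 3, Late 1 or Late 3. Psmc5 rose in Reactivated by 0.48 ± 0.17 (adjusted p = 0.0371), lost without Basal 1, Basal 2, Late 1, Reactivated 2 or Reactivated 3.

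**Figure D2:**
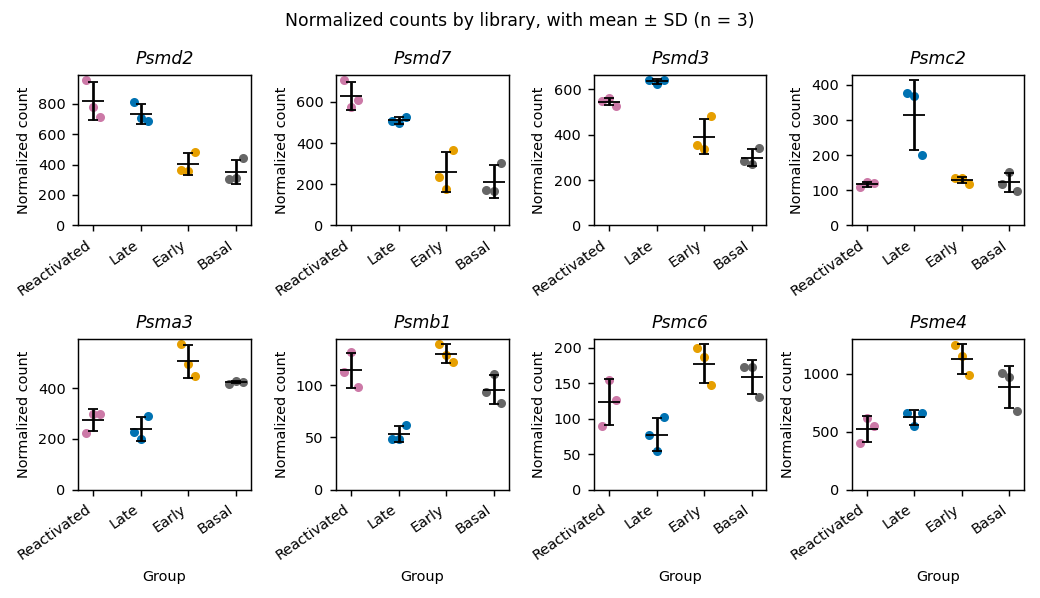
Normalized counts (vertical axis) of 8 members in each library, with points for the 3 libraries of a group and bars for mean ± SD. Psmd2, Psmd7 and Psmd3 are high in Reactivated and Late, Psmc2 in Late alone, Psma3 and Psme4 are low in both, and Psmb1 and Psmc6 are lowest in Late.

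In Late against Basal the core particle did not follow the regulatory particle. Of its 14 constitutive genes, 2 rose and 4 fell (42.9% passed, beside 49.1% of all genes, median log2 fold change -0.36). With libraries set to the same total this became 0 and 11 (median -1.19), where 66.8% of all genes passed. In Reactivated against Basal 3 rose and 1 fell (28.6% passed, beside 39.4% of all genes). The median was 0.23, or -0.27 with libraries set to the same total. Under TMM scaling, 11 of the 14 core genes and 14 of the 17 regulatory genes were positive in that comparison. In the alpha ring, whose subunits gate the entrance of the barrel, Psma3 had 224, 300.1 and 297 in Reactivated, 226, 198 and 290.4 in Late, 576, 496 and 448 in Early, and 418, 429 and 426 in Basal. No Reactivated or Late library reached the range of Early or Basal, and Psma3 fell, at -0.83 ± 0.17 (adjusted p = 0.00103) in Late and -0.63 ± 0.17 (adjusted p = 0.00915) in Reactivated, each against Basal. With a correction for GC content both calls were lost, at -0.33 and -0.24. Psma1 had 56.4, 118 and 88.8 in Reactivated, 50.4, 51.5 and 77.5 in Late, 152, 141 and 145 in Early, and 126, 112 and 119 in Basal. It fell in Late, at -0.98 ± 0.25 (adjusted p = 0.00506), and Reactivated, which overlapped Basal, had -0.42 ± 0.24 (adjusted p = 0.181). Psma6 had 78.5, 62.5 and 40.9 in Reactivated, 18.0, 22.5 and 17.7 in Late, 78.3, 59.3 and 32.6 in Early, and 55.7, 71.8 and 31.6 in Basal. Its Late libraries were below all others, the fall against Basal was -1.43 ± 0.41 (adjusted p = 0.00953), lost without Basal 2, and Reactivated had 0.20 ± 0.37 (adjusted p = 0.699).

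Both other alpha subunits that passed against Basal rose. Psma4 had 537, 471 and 386 in Reactivated, 544, 437 and 471 in Late, 220.2, 253 and 362 in Early, and 184, 257 and 318 in Basal, and the Reactivated and Late libraries were all above the Early and Basal ones. Against Basal it rose by 0.93 ± 0.22 (adjusted p = 0.00286) in Late and 0.87 ± 0.22 (adjusted p = 0.00662) in Reactivated. Psma7 had 233, 272 and 233 in Reactivated, 195, 198 and 215 in Late, 161, 166 and 202 in Early, and 128, 162 and 148 in Basal, with the highest levels in Reactivated. It rose by 0.75 ± 0.16 (adjusted p = 0.00211) in Reactivated and by 0.47 ± 0.16 (adjusted p = 0.0222) in Late, or -0.36 with libraries set to the same total, the second lost without Basal 1 or Late 3. Psma2 and Psma5 did not pass against Basal.

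In the beta ring, Psmb1, which has no cutting site, had 113, 132 and 98.6 in Reactivated, 48.0, 48.9 and 61.6 in Late, 139.9, 129 and 122 in Early, and 93.3, 111 and 83.2 in Basal. The 3 Late libraries lay below all other libraries, and Psmb1 fell, at -0.85 ± 0.20 (adjusted p = 0.00352) in Late against Basal, while Reactivated had 0.26 ± 0.19 (adjusted p = 0.302). Psmb2, Psmb3 and Psmb4, also without a cutting site, did not pass against Basal. The 3 catalytic subunits differ in the residues after which they cut. Psmb5, with chymotrypsin-like activity, had 39.9, 27.3 and 35.5 in Reactivated, 20.4, 21.1 and 22.4 in Late, 55.3, 40.0 and 38.4 in Early, and 16.8, 33.7 and 22.2 in Basal. Early was the highest group, and the differences from Basal did not pass in Reactivated, at 0.48 ± 0.33 (adjusted p = 0.256), or in Late, at -0.18 ± 0.34 (adjusted p = 0.676).

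Psmb6, with caspase-like activity, had 103, 77.4 and 123 in Reactivated, 70.9, 58.1 and 71.9 in Late, 71.0, 89.7 and 76.0 in Early, and 53.1, 52.8 and 83.9 in Basal. It rose in Reactivated against Basal by 0.66 ± 0.25 (adjusted p = 0.0449), with Reactivated 2 below Basal 3. That call was kept without 2 of the 12 libraries, Basal 3 and Reactivated 2, and lost without each of the other 10. Late against Basal was 0.07 ± 0.25 (adjusted p = 0.842). Psmb7, with trypsin-like activity, had 103, 74.8 and 73.7 in Reactivated, 40.8, 48.9 and 50.4 in Late, 95.0, 73.1 and 56.0 in Early, and 67.4, 66.2 and 69.6 in Basal. All Late libraries were below and all Reactivated libraries above Basal, but neither difference passed, at -0.53 ± 0.25 (adjusted p = 0.0855) and 0.30 ± 0.24 (adjusted p = 0.335).

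Immune signals replace these 3 subunits with inducible ones. Psmb10, which takes the place of Psmb7, had 50.9, 46.6 and 49.7 in Reactivated, 32.4, 25.1 and 23.3 in Late, 48.0, 35.2 and 42.6 in Early, and 23.3, 14.6 and 31.6 in Basal. It rose in Reactivated against Basal by 1.05 ± 0.31 (adjusted p = 0.016), with every Reactivated library above every Basal library, and the call was lost without Basal 2. Late had 0.19 ± 0.33 (adjusted p = 0.652). Psmb8, the counterpart of Psmb5, had 36 counts in all 12 libraries together and at most 13 in 1, and Psmb9, the counterpart of Psmb6, had 5 and at most 2. Normalized counts of Psmb8 were 17.9, 0 and 0.888 in Reactivated, 1.20, 1.32 and 8.40 in Late, 0, 0 and 3.34 in Early, and 6.48, 1.12 and 0.717 in Basal, and those of Psmb9 were 0, 0 and 0.888 in Reactivated, 1.20, 2.64 and 0 in Late, 0, 0 and 0 in Early, and 0, 1.12 and 0 in Basal. Both were left out by the filter, and at this depth a difference between groups was not detectable.

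**Figure D3:**
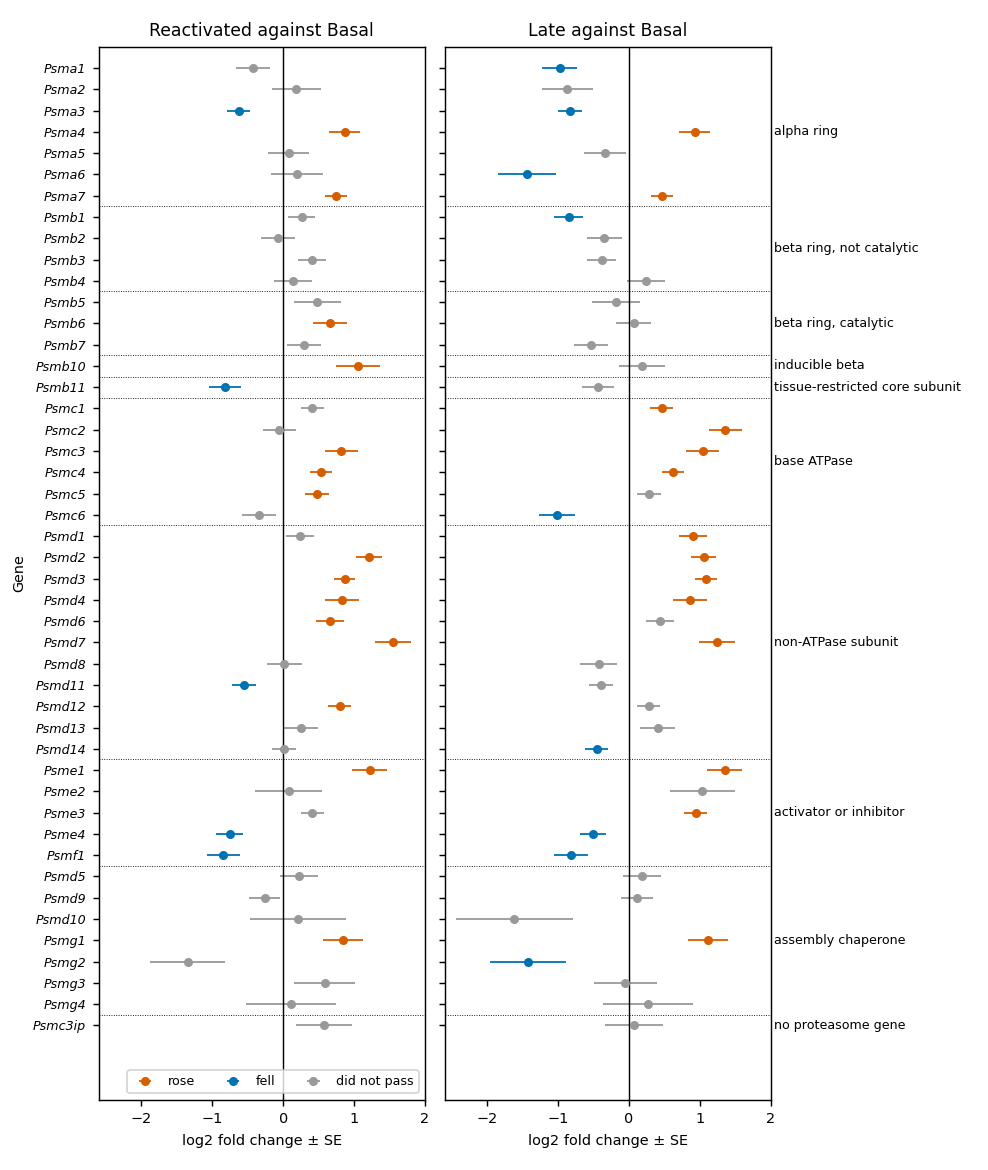
Log2 fold change ± SE (horizontal axis) of the 46 tested members by role, Reactivated against Basal on the left and Late against Basal on the right, under TMM scaling; orange rose, blue fell and grey did not pass. The non-ATPase subunits lie mostly to the right of 0 in both panels, and the alpha and beta rings lie mostly to the left in Late. With libraries set to the same total, 0 members rose in Late and 3 in Reactivated, beside 1401 and 1240 of 15668 genes.

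A measure that does not depend on library scaling is the sum over the 14 core genes divided by the sum over the 17 regulatory genes in the same library. It was 0.324, 0.313 and 0.299 in Reactivated, 0.229, 0.212 and 0.272 in Late, 0.451, 0.445 and 0.349 in Early, and 0.423, 0.444 and 0.370 in Basal. The Late libraries were the lowest, the Reactivated libraries came next without overlap, and Early and Basal overlapped. Basal 3 and Early 3, which had the highest Rn45s share of their groups, also had the lowest ratio of their groups. Without Psma3 the ratio was 0.247 to 0.284 in Reactivated, 0.180 to 0.220 in Late, 0.259 to 0.320 in Early and 0.270 to 0.323 in Basal, so that Reactivated then overlapped Early and Basal. The median log2 fold change of the regulatory genes exceeded that of the core genes in Late against Basal by 0.83, and by 0.25 to 0.98 across all alternative settings. In Reactivated against Basal the excess was 0.25, and -0.09 to 0.41 across the settings, with the negative value from the Rn45s covariate. Genes with high counts weigh most in both sums, and the ratio was not computed without single regulatory genes. No test was made of the ratio, and the split into these 2 sets was drawn with the results known.

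**Figure D4:**
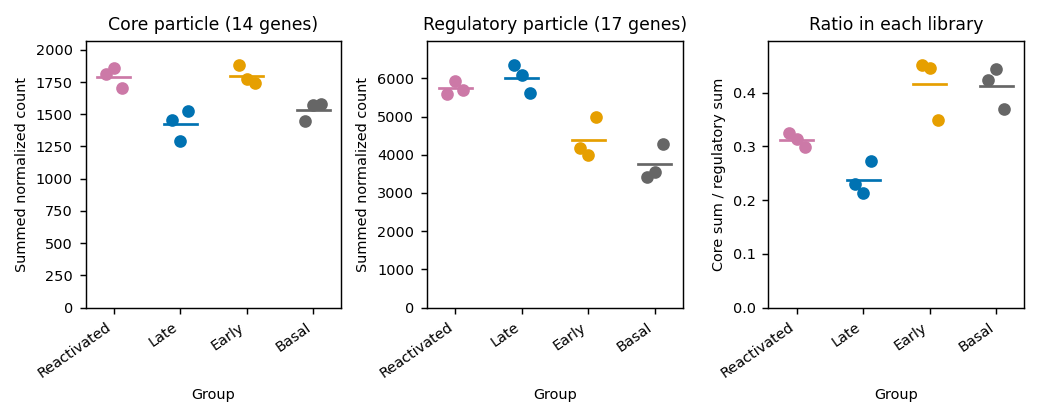
Summed normalized counts of the core genes (left) and the regulatory genes (middle) and their ratio (right) in each library, with a line at the mean of each group. The regulatory sum is 5599 to 5933 in Reactivated and 5620 to 6349 in Late, above all Early and Basal libraries at 3428 to 4991. The core sum is 1292 to 1529 in Late and overlaps Basal at 1450 to 1583. It is 1704 to 1855 in Reactivated and 1742 to 1882 in Early.

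Activators bind the ends of the core particle in place of the regulatory particle. Psme1, a subunit of the PA28 activator, had 154, 139.9 and 137 in Reactivated, 162, 149 and 159.7 in Late, 65.8, 66.9 and 86.9 in Early, and 60.9, 37.0 and 83.9 in Basal. No Reactivated or Late library overlapped Early or Basal, and Psme1 rose by 1.35 ± 0.24 (adjusted p = 0.0004) in Late and 1.22 ± 0.24 (adjusted p = 0.00165) in Reactivated. Its partner Psme2 had means of 19.1 ± 11.3 in Reactivated, 36.2 ± 8.80 in Late, 17.9 ± 7.41 in Early and 17.5 ± 0.898 in Basal (SD, n = 3 each) and did not pass. Psme3, the nuclear activator REGgamma, had 379, 353 and 344 in Reactivated, 556, 589 and 409.9 in Late, 269, 264 and 329.9 in Early, and 237, 257 and 311 in Basal. It rose in Late by 0.94 ± 0.17 (adjusted p = 0.000326), and in Reactivated, where all libraries were also above Basal, the value was 0.41 ± 0.17 (adjusted p = 0.0612).

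Psme4, the large activator PA200, had 405, 622 and 547 in Reactivated, 664, 552 and 661 in Late, 1246, 1156 and 988 in Early, and 1010.4, 975 and 681 in Basal. Early stood highest and every Reactivated and Late library was below every Early and Basal library. Psme4 fell, at -0.76 ± 0.19 (adjusted p = 0.00576) in Reactivated and, with -0.50 ± 0.18 (adjusted p = 0.0349), in Late against Basal, the second lost without Basal 1, Basal 2, Late 1, Late 2 or Late 3. Psmf1, the inhibitor PI31, fell in both as well, with -0.84 ± 0.24 (adjusted p = 0.012) in Reactivated, lost without Basal 2, and -0.82 ± 0.24 (adjusted p = 0.0106) in Late, lost without Basal 2 or Late 1.

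Of 7 assembly chaperones, which help to build the particles and leave them, 1 rose and 1 fell in Late against Basal, and 1 rose in Reactivated against Basal. Of all genes, 49.1% and 39.4% passed in these comparisons. Psmg1, which starts the alpha ring, had 49.6, 73.0 and 48.0 in Reactivated, 74.5, 58.1 and 74.7 in Late, 34.4, 38.6 and 38.4 in Early, and 22.0, 41.5 and 31.6 in Basal. It rose by 1.12 ± 0.28 (adjusted p = 0.00453) in Late and 0.84 ± 0.28 (adjusted p = 0.0294) in Reactivated, the second lost without Basal 1, Basal 3 or Reactivated 2. Its partner Psmg2 fell in Late, at -1.42 ± 0.53 (adjusted p = 0.0389), from low counts with a mean of 10.6 ± 5.82 in Late and 29.4 ± 6.67 in Basal, and that call was lost without Basal 1, Basal 2, Early 1, Late 1 or Late 2. Psmd5, Psmd9, Psmd10, Psmg3 and Psmg4 passed in no comparison.

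Members known from other tissues or roles were few. Psmb11, a core subunit described in the thymus, had means of 104 ± 21.7 in Reactivated, 136 ± 21.9 in Late, 167 ± 39.3 in Early and 185 ± 35.5 in Basal. It fell in Reactivated against Basal, at -0.82 ± 0.23 (adjusted p = 0.0121), lost without Basal 2. Its raw counts were 70 in Reactivated 1 to 260 in Early 2, and whether these reads are Psmb11 mRNA was not tested. Psma8, a core subunit described in the testis, had 3 counts in all libraries together, and Psme2b had 9. Psmc3ip matches the rule by its symbol only, since it acts in meiotic recombination, and it passed in no comparison.

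Reactivated against Late is the comparison of the later titles with each other. It gave 6 members that rose and 3 that fell, together 19.6% of the members, where 22.6% of all genes passed (10.3% rose and 12.3% fell). The Reactivated libraries lay above all Late libraries in 13 members and below in 4, against 18.4% and 21.2% of all genes. Same-total scaling gave 17 and 1, where 3881 of all genes rose and 1091 fell. Upper quartile scaling gave 10 and 2, where 2260 rose and 1590 fell. The core particle held 5 of the 6 that rose under TMM scaling and 0 of those that fell, with a median of 0.57, and the regulatory particle had 1 that rose and 2 that fell, with a median of -0.04. Psmb1 was 2.15-fold higher in Reactivated, at 1.11 ± 0.20 (adjusted p = 0.00122). Psma6 was higher by 1.63 ± 0.41 (adjusted p = 0.00959), Psmb3 by 0.79 ± 0.20 (adjusted p = 0.0118), Psmb7 by 0.83 ± 0.24 (adjusted p = 0.0243) and Psma2 by 1.05 ± 0.36 (adjusted p = 0.0491).

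Psmb3 lost its call without Late 2, Psmb7 without Late 1, Late 2 or Reactivated 1, and Psma2 kept it without 2 of the 12 libraries, Early 3 and Reactivated 2. Psmd12 rose by 0.52 ± 0.16 (adjusted p = 0.0295), lost without Late 1, Late 2 or Reactivated 1. Psmc2 fell, at -1.42 ± 0.23 (adjusted p = 0.000448), and this was the 1 call of a member that was kept without each library and under all 12 other settings. Psmd1 fell, at -0.67 ± 0.20 (adjusted p = 0.0248), lost without Late 1, Late 2 or Reactivated 1. Psme3 fell, at -0.53 ± 0.16 (adjusted p = 0.0308), lost without Late 1, Late 2, Reactivated 2 or Reactivated 3. The count of members called was 4 without Late 1 and 3 without Late 2, beside 13.7% and 14% of all genes.

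Late against Early, 11 members rose and 11 fell, together 47.8%, where 42.3% of all genes passed (22% rose and 20.4% fell). The Late libraries lay above all Early libraries in 14 members and below in 17, against 29.5% and 30.4% of all genes. Same-total scaling gave 0 and 29, upper quartile scaling 7 and 16, and the values as deposited 0 and 12. Of all genes, 1208 and 8601, 2482 and 4637, and 1087 and 3582 rose and fell, in that order. Psmc3, Psmd1, Psmd3 and Psmd4 rose under TMM scaling but had log2 fold changes of -0.023, -0.21, -0.038 and -0.084, in that order, with libraries set to the same total. Psmb1, Psma3, Psma1 and Psmb5 fell, with -1.29 ± 0.20 (adjusted p = 0.000182), -1.08 ± 0.17 (adjusted p = 0.000176), -1.27 ± 0.25 (adjusted p = 0.00101) and -1.05 ± 0.33 (adjusted p = 0.0185) in that order, the last lost without Early 1, Late 1 or Late 2. Psmc2 rose by 1.28 ± 0.23 (adjusted p = 0.000493) and Psme1 by 1.10 ± 0.24 (adjusted p = 0.0021). The core particle had 1 that rose and 6 that fell, and the regulatory particle 7 and 3. The count of members called was 13 without Early 1, 14 without Late 1 and 14 without Late 2. The shares of all genes were 30.7%, 30.6% and 30.7%.

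Reactivated against Early gave 7 members that rose and 6 that fell, together 28.3%, where 26.2% of all genes passed (13.5% rose and 12.7% fell). The Reactivated libraries lay above all Early libraries in 12 members and below in 6, against 19.2% and 19.9% of all genes. Same-total scaling gave 2 and 7, upper quartile scaling 4 and 6, and the values as deposited 0 and 2. Of all genes, 719 and 4284, 1659 and 2502, and 343 and 1241 rose and fell, in that order. Psmd7 rose by 1.28 ± 0.25 (adjusted p = 0.00351) and Psmd2 by 1.02 ± 0.18 (adjusted p = 0.00207), while Psme4 and Psma3 fell, with -1.10 ± 0.19 (adjusted p = 0.00169) and -0.88 ± 0.17 (adjusted p = 0.0029). These were the 4 calls of this comparison kept without each library. The count was 4 without Early 1, 4 without Early 2 and 7 without Reactivated 1, beside 11.5%, 11% and 21% of all genes. The count in Reactivated against Basal was 12 without Basal 1 and 11 without Basal 2, beside 28.2% and 26.9% of all genes.

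The comparisons of Late and of Reactivated with Basal share the 3 Basal libraries, so their values are given side by side. In both, 10 members rose (Psma4, Psma7, Psmc3, Psmc4, Psmd2, Psmd3, Psmd4, Psmd7, Psme1 and Psmg1) and 3 fell (Psma3, Psme4 and Psmf1), and 0 rose in one and fell in the other. Replicate 3 of Basal and of Early often stood nearer to Late than the other replicates did. Of the 14 members that rose in Late against Basal, Early 3 was the highest Early library in 11 and Basal 3 the highest Basal library in 10. Of the 9 that fell, Early 3 was the lowest in 8 and Basal 3 the lowest in 6. These counts were not made over all genes. Over all genes tested, Basal 3 and Early 3 deviated together from their group means, with r = 0.49. Without both libraries, 15 members rose and 8 fell in Late against Basal, where 52.7% of all genes passed. In Reactivated against Basal 15 rose and 5 fell, where 44.8% of all genes passed.

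Base composition went with these changes. The transcript GC content of the 14 members that rose in Late against Basal was 45.0% to 58.3% (median 51.3%), and that of the 9 that fell was 37.0% to 49.2% (median 44.0%). Psmd3 has 58.3% GC and Psmc6 37.0%. Across the 46 members, the log2 fold change and GC content had r = 0.51 (rho = 0.49) in Late against Basal and r = 0.45 (rho = 0.48) in Reactivated against Basal, and across 14873 genes r = 0.22 and 0.29. These values are across genes that share libraries and carry no test. The core and the regulatory genes had nearly the same median GC content, 49.2% and 49.7%.

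With a GC trend removed from each library, 16 members rose and 5 fell in Late against Basal, where 45.1% of all genes passed. The calls of Psma3, Psmc6, Psme4, Psmd14 and Psmg2 were lost. The log2 fold change of Psmc6 was then -0.26. In Reactivated against Basal 14 rose and 3 fell, where 35.9% of all genes passed, and the calls of Psma3, Psmb6, Psmb10 and Psmd11 were lost. With the correction, the regulatory particle had 11 that rose and 0 that fell in Late against Basal (median 0.54), and the core particle 2 and 4 (median -0.34).

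**Figure D5:**
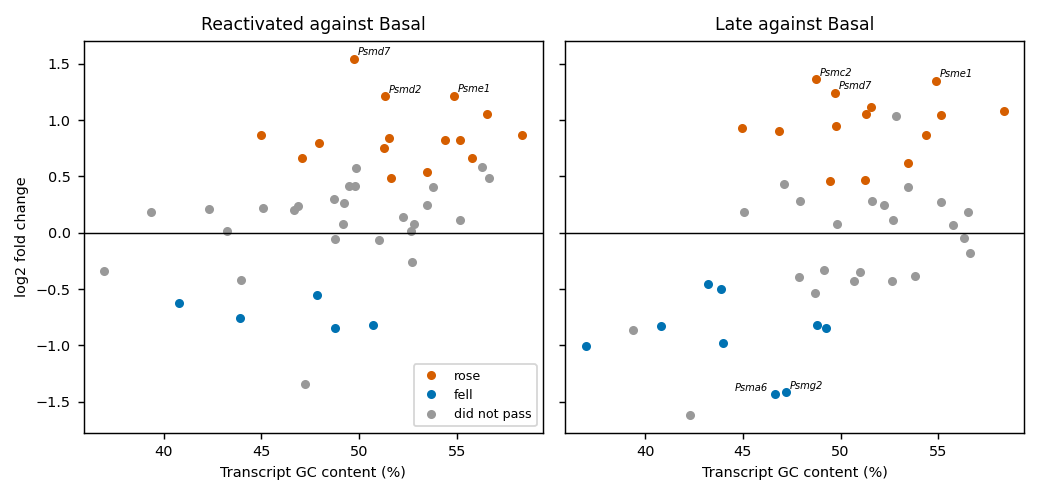
Log2 fold change (vertical axis) against transcript GC content in percent (horizontal axis) for the 46 tested members, Reactivated against Basal on the left and Late against Basal on the right; orange rose, blue fell and grey did not pass, under TMM scaling, with names for the called members that moved most. All members that fell in Late have a GC content of at most 49.2%.

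Promoters are shown for 4 members because proteasome genes are known to be induced together by Nfe2l1 and its relative Nfe2l2 through antioxidant response elements. The sequences are the 250 bases before the start of the gene from RefSeq (GRCm38.p6), with matches to TGACNNNGC, TGAGNNNGC or CCAAT on either strand in capitals. Psmd2 rose and has no match, Psma3 fell and has CCAAT, Psmc6 fell and has both TGA motifs, and Psmb5, a catalytic subunit that did not pass against Basal, has TGACNNNGC.
Psmd2 (chr16:20651402-20651651, + strand): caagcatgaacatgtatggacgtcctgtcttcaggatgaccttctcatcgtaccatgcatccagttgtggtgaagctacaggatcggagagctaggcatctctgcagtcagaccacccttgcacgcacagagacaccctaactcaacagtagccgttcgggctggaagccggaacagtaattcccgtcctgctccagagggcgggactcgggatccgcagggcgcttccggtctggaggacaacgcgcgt
Psma3 (chr12:70974373-70974622, + strand): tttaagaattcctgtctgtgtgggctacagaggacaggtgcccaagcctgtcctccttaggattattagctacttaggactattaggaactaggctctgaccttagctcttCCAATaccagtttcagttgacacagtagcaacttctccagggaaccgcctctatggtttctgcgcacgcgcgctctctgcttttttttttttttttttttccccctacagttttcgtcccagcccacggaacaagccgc
Psmc6 (chr14:45329574-45329823, + strand): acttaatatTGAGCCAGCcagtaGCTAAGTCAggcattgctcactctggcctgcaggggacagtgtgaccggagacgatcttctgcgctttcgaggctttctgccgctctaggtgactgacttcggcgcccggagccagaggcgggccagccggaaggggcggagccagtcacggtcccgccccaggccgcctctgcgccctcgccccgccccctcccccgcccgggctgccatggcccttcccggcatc
Psmb5 (chr14:54617996-54618245, - strand): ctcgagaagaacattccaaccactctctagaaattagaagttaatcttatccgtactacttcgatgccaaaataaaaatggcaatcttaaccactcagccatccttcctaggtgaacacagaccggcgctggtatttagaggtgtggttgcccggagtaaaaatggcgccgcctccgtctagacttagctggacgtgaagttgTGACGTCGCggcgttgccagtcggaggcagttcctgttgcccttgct

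Promoters were at hand for 39 of the 46 members. TGACNNNGC was found in 12.8% of them, against 11.9% of 11441 promoters of tested genes, TGAGNNNGC in 23.1% against 15.8%, and CCAAT in 35.9% against 35.8%. The letters of the TGA motifs can overlap each other on opposite strands. Of 11 promoters of members that rose in Late against Basal, 0 had TGACNNNGC, 2 TGAGNNNGC and 5 CCAAT, and of 7 that fell, 1, 2 and 4 had them in that order. Matches are letters in a window and show no binding.

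Other genes of the pathway were counted as a list of 36, of which 35 were in the table and tested. Early against Basal 0 passed with edgeR, beside 6.03% of all genes. With the replicate block in those groups alone 8 rose and 1 fell, where 17.8% of all genes passed. Late against Basal 9 rose and 10 fell (median 0.06), together 54.3% beside 49.1% of all genes. Reactivated against Basal 13 rose and 3 fell (median 0.23), together 45.7% beside 39.4%. Reactivated against Late 12 rose and 2 fell (median 0.31), together 40% beside 22.6%. With libraries set to the same total the last 3 splits were 1 and 24, 5 and 10, and 20 and 1. Of all genes, 66.8%, 45.1% and 31.7% then passed, in that order. Nfe2l1, the factor that induces proteasome genes when the proteasome is short, averaged 1292 ± 177 in Reactivated and 607 ± 38.5 in Basal and rose by 1.09 ± 0.13 (adjusted p = 6.85e-05). In Late it rose by 0.67 ± 0.13 (adjusted p = 0.000875) against Basal, but had -0.17 with libraries set to the same total. Nfe2l2, the oxidative stress factor, averaged 6.96 ± 2.49 in Late and 61.6 ± 28.4 in Basal and fell, at -3.14 ± 0.55 (adjusted p = 0.000307), and in Reactivated it fell, at -1.31 ± 0.47 (adjusted p = 0.0386), the second lost without Basal 1, Basal 2, Early 1, Early 2, Late 2, Reactivated 2 or Reactivated 3. Adrm1, a ubiquitin receptor of the regulatory particle, averaged 564 ± 58.2 in Late and 229 ± 77.2 in Basal and rose by 1.29 ± 0.24 (adjusted p = 0.000487), and in Reactivated by 0.94 ± 0.24 (adjusted p = 0.00663).

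Ubb, which encodes ubiquitin, averaged 458 ± 39.3 in Reactivated and 128 ± 48.4 in Basal and rose by 1.82 ± 0.22 (adjusted p = 7.07e-05). In Late against Basal, Ubb had 0.22 ± 0.23 (adjusted p = 0.44). Reactivated against Late, Ubb rose by 1.60 ± 0.22 (adjusted p = 0.000125). Ubqln2, a shuttle that carries ubiquitinated proteins to the proteasome, averaged 768 ± 71.4 in Reactivated and 249 ± 81.5 in Basal and rose by 1.61 ± 0.19 (adjusted p = 6.09e-05). Ube2k, a ubiquitin-conjugating enzyme, averaged 791 ± 101 in Late and 264 ± 31.1 in Basal, rose by 1.59 ± 0.17 (adjusted p = 4.42e-06), and had -0.26 ± 0.17 (adjusted p = 0.235) in Reactivated against Basal.

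Pomp, the chaperone that completes the core particle, averaged 60.2 ± 19.9 in Reactivated and 22.0 ± 7.65 in Late, rose by 1.42 ± 0.35 (adjusted p = 0.00893) in Reactivated against Late, and had -0.77 ± 0.35 (adjusted p = 0.0863) in Late against Basal. Uba6, an activating enzyme of ubiquitin, fell against Basal in Late, with -1.51 ± 0.26 (adjusted p = 0.000278), and in Reactivated, with -1.18 ± 0.25 (adjusted p = 0.0026). Usp14 and Uchl5, deubiquitinases that bind the regulatory particle, did not pass against Basal in either group.

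No source used here gives the strand setting of the counting, so reads of a gene and of a partner on the other strand may have been mixed. In GENCODE (GRCm38), exons of Psma4, Psmc3, Psme1, Psmd1, Psmd3, Psmb7, Psmb9, Psmd13 and Psmc3ip overlap those of AY074887, Slc39a13, Emc9, Htr2b, Gm12356, Nek6, Tap1, Sirt3 and Mlx, in that order, on the opposite strand. Those of Psma5, Psmb8 and Psmd9 overlap 1700010K24Rik, Gm20496 and Gm26745 on that strand. On the same strand, Psmb5, Psmd1, Psmg3 and Psme2b overlap Mir686, Gm21972, Gm26938 and 9930111J21Rik1, in that order. The values of all these members are uncertain to that extent. Symbols of 4 proteasome pseudogenes were looked up and are not rows of the table, so where their reads went is not known.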

How the data were processed

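Nuclear RNA was measured in 12 libraries, 3 for each title, from pooled mice. No label says whether libraries of different titles shared a pool, so p-values measure the spread between libraries. Per the labels' protocols, RNA was extracted with a kit for fixed tissue and made into stranded total RNA libraries with ribosomal depletion, while the design text names another kit. The authors deposited 1 table of counts per gene symbol. Its name calls the values normalized, but they are whole numbers with unequal totals and size factors of 0.734 to 1.46, and were taken as raw counts. Bowtie2 2.0, Cufflinks 2.2, DESeq2 and the build mm9 are named in the submitters' processing notes; no source used here names the counting tool, the annotation or the strand setting.

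Genes that reached a count of 10 in 3 or more libraries were tested with edgeR 4.0.16 (R 4.3.3), using quasi-likelihood F tests, TMM scaling and 4 group means. P-values are two-sided and Benjamini-Hochberg adjusted over all 15668 genes, and a gene passed under 0.05. The SE is the log2 fold change divided by the square root of F. Normalized counts come from dividing each count by its library's TMM-adjusted size, set to a geometric mean of 1 over the libraries; they are not scaled by gene length, so levels are not compared between genes. The script was tested on simulated data. The alternatives are other scalings and filters, DESeq2 1.42.0, a replicate block, the Rn45s share as a covariate, pairs of groups fitted alone, each library left out and, added after seeing the data, a GC correction and a replicate block in Early and Basal alone. Libraries with the same number deviated together from their group means in Early and Basal (r = 0.33, 0.14 and 0.49), but not in every pair of the other groups. Across numbers, Basal 1 with Early 2 had r = 0.22 and Basal 2 with Early 1 had 0.17. No label says what a number marks. GC content and exon overlaps come from GENCODE vM21 (GRCm38) and were joined by symbol.

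Members, gene lists, motifs and alternatives were chosen with earlier results of these data known. Values in every library are given for members that kept a call without each library, and for Psmb5 to Psmb10, Psmd4, Psmd14, Psme3 and Psme4 whatever their test gave; other members are given by counts and ranges. Promoters to print and the other pathway genes to name were chosen after their values were seen.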

Additional observations from a re-analysis of the deposited data

How the results depend on the processing

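TMM scaling found 0, 23, 20, 22, 13 and 9 members in Early against Basal, Late against Basal, Reactivated against Basal, Late against Early, Reactivated against Early and Reactivated against Late. With values as deposited, 9 members passed in Late against Basal, 3 in Reactivated against Basal, 12 in Late against Early, 2 in Reactivated against Early and 3 in Reactivated against Late, and 10 instead of 29 differed among the 4 groups. Of all genes, 28.5%, 14.4%, 29.8%, 10.1% and 11.1% passed in these comparisons, in that order, and 36.2% differed among the groups. With the Rn45s share as a covariate, 0 members passed in each of the first 4 of these comparisons. In Reactivated against Late 5 passed, and 8 differed among the groups. The shares of all genes were then 1.31%, 3.99%, 0.6%, 0% and 11.9%, and 23.8% among the groups. With libraries set to the same total, 12 members passed in Reactivated against Basal and 18 in Reactivated against Late, beside 45.1% and 31.7% of all genes. With the groups fitted alone, 6 passed in Reactivated against Early, beside 17.4% of all genes, with fewer libraries to estimate the spread. Leaving out 1 library at a time gave 22 to 29 members among the groups and 0 in Early against Basal. It gave 18 to 26 in Late against Basal and 13 to 26 in Late against Early. For Reactivated it gave 11 to 20 against Basal, 4 to 15 against Early and 3 to 10 against Late. Of all genes, 48.7% to 61.9% differed among the groups, and 3.12% to 7.84% passed in Early against Basal. In the other comparisons 39% to 53.3%, 30.6% to 46.5%, 26.9% to 42.6%, 11% to 29.5% and 13.7% to 24.6% passed, in the order given.

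Among the calls of the main fit, and calls in either fit of the members given whatever their test gave, 27 values turned sign. Other members called only in an alternative fit are not in that number. With all tested members counted, same-total scaling turned 14 of 46 in Late against Basal, 17 in Reactivated against Basal and 12 in Late against Early. With libraries set to the same total, log2 fold changes in Late against Basal were -0.36 for Psma7, -0.74 for Psmb6, -0.38 for Psmc1 and -0.21 for Psmc4, and in Late against Early -0.023 for Psmc3, -0.21 for Psmd1, -0.038 for Psmd3 and -0.084 for Psmd4. With the Rn45s share as a covariate they were in Late against Basal 0.24 for Psma1, 0.11 for Psma3, -0.22 for Psma4, 0.79 for Psmc6, -0.082 for Psmd2, -0.60 for Psmd4, -0.13 for Psmd7, -0.12 for Psme3, 0.81 for Psme4 and 0.48 for Psmf1. In Late against Early they were -0.30 for Psma4, 0.55 for Psmc6, -0.23 for Psmd2, -0.76 for Psmd4, -0.34 for Psmd7, -0.18 for Psme3, 0.39 for Psme4 and 0.53 for Psmf1, and in Reactivated against Early 0.032 for Psmb11. Beyond the construction of these scalings, the cause was not tested.

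By their deviations, Early and Basal libraries matched by number most in replicate 3 (r = 0.49). Replicate 2 matched less (0.14) than Basal 1 with Early 2 (0.22). In the other pairs of groups, libraries with the same number correlated at -0.22 to 0.17. With the replicate block in Early and Basal alone, 3 members passed, beside 17.8% of all genes. With it over all 12 libraries, 0, 23, 20, 21, 15 and 9 members passed in the order of the first sentence. Among the groups 26 differed. The shares of all genes were 5.92%, 48.9%, 39%, 42.2%, 25.7% and 22.1%, and 57.6% among the groups. The block over 12 libraries ended the calls of Psmg2 in Late against Basal and of Psmb7 and Psmd11 in Late against Early. Depth limits Psma8, Psmb8, Psmb9 and Psme2b, which had 3 to 36 counts in all.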
